A study of Mus musculus with 2 samples.

Results

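The enzymes that build the sugar chains of mucins were followed through 12 cell classes of the mouse ileal crypt. Genes were taken by name: every symbol that starts with Galnt, Gcnt, C1galt1, B3gnt, B4galt, B4galnt, St3gal, St6gal or Chst, or with Fut followed by a digit. This rule found 84 of the 31053 genes in the deposited matrices, under 83 symbols, because St6galnac2 is listed with 2 gene identifiers. At least 1 unique molecular identifier (UMI, the tag that marks one captured transcript) was counted for 69 of them, and 46 had enough counts to be tested. The prefixes reach beyond mucins: they also hold enzymes of N-glycans, glycolipids and proteoglycans, which are named as such where they appear, and Galnt6os, an RNA antisense to Galnt6.

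Mucins are secreted or membrane proteins whose serines and threonines carry dense O-linked glycans. Each chain starts in the Golgi when a Galnt enzyme attaches N-acetylgalactosamine (GalNAc) to the protein. C1galt1 adds galactose to form core 1, Gcnt enzymes add a branch to form core 2 or core 4, and B3gnt6 forms core 3 instead. B3gnt and B4galt enzymes lengthen the chains by turns, and Fut enzymes, sialyltransferases and Chst sulfotransferases cap them. In the intestine goblet cells secrete the gel-forming mucin Muc2 with such chains.

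The cells were live, Tom-positive ileal crypt cells, labelled WT (wild type), of Atoh1CreER-T2;R26RTom mice, in which tamoxifen-activated Cre under Atoh1, a gene of the secretory lineage, turns on a red reporter. All animals received 2 intraperitoneal doses of 1 mg/mL tamoxifen 24 h apart, and tissue was taken 12 h after the last. There was 1 group with 2 single-cell libraries (10x Genomics 3′ v3.1), here replicate 1 and replicate 2, and no untreated or Cre-free sample was analysed here. The labels give neither age nor sex, and do not say that the libraries came from separate animals. The p-values measure the spread of class levels between these 2 libraries that is left after a library term in the model. That spread may be technical.

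The authors' cell list assigned 5305 and 6257 cells to 12 classes, printed here under their deposited names. Counts were summed per class and library into 24 sums, from 129631 UMIs in 42 EC cells of replicate 1 to 13770059 UMIs in 2318 GOBLET-PRE cells of replicate 1. GOBLET held 42 and 84 cells. Levels are CPM, counts relative to the total of each class and library sum, after scaling between sums on abundant genes. Counts of 3′ ends do not depend on transcript length. This scaling matters most for PANETH, whose factors were 0.230 and 0.256, and for GOBLET, at 0.657 and 0.696. GOBLET, PANETH and TUFT carried the markers of their names: the summed unscaled level of 6 goblet markers was 348514 and 352417 CPM in GOBLET against 9677 and 15874 in ISC. For 6 Paneth markers it was 362058 and 399093 CPM in PANETH, and for 4 tuft markers 2506 and 1891 in TUFT. Other lists parted the classes less. For 3 secretory progenitor markers it was 281 and 238 CPM in SEC-PRO and 304 and 237 in GP. Goblet markers were higher in ENTERO-PRO (51787 and 54416 CPM) than in SEC-PRO (42110 and 39358). Of 6 immune markers 5 were at 0 in TUFT in both libraries, with a summed unscaled level of 36.2 and 28.0 CPM, and in GOBLET all were at 0. In EC 2 endothelium markers summed to 46.3 and 18.7 unscaled CPM. Because the authors drew the classes from the same expression values, a test between classes describes how far they lie apart and is not independent evidence that they differ. The labels do not say how doublets were treated, the listed cells were used as deposited, and 12 barcodes occurred in both libraries.

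The promoters of 4 genes are shown because their genes stand for the patterns described below. Galnt7 is the most abundant member, and Galnt10 and B3gnt3 changed differently in goblet and Paneth maturation. Chst11 had its highest level in EEC-PRE, the enteroendocrine precursor class. Each run is the 250 bases before the RefSeq start site, 5′ to 3′ on the gene's strand. The windows overlap no annotated exon. Capitals mark matches on either strand to the searched motifs: CCGGAT (an ETS-type site), CCACGT (a type bound by XBP1 and CREB3 factors), TGTTTAC (forkhead), CAGATG and CAGCTG (E-boxes), and CAAAGTCCA (HNF4). None of these motifs contains another.
Galnt7 (GRCm38.p6, chr8:57653056-57653305, minus strand): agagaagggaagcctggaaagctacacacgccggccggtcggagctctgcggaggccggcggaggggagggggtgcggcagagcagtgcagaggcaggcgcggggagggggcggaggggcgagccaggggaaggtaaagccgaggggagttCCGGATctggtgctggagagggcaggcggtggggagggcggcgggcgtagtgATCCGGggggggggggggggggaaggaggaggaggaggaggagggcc
Galnt10 (GRCm38.p6, chr11:57645192-57645441, plus strand): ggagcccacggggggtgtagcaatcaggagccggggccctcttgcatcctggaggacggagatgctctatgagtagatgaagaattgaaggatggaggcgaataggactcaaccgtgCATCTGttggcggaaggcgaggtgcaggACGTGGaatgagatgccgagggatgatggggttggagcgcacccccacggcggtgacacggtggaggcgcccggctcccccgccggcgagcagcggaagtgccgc
B3gnt3 (GRCm38.p6, chr8:71701801-71702050, minus strand): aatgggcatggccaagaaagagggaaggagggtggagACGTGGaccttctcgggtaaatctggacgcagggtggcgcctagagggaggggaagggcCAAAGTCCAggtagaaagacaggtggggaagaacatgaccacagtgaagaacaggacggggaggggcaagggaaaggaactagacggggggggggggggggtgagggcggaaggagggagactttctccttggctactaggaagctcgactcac
Chst11 (GRCm38.p6, chr10:82985247-82985496, plus strand): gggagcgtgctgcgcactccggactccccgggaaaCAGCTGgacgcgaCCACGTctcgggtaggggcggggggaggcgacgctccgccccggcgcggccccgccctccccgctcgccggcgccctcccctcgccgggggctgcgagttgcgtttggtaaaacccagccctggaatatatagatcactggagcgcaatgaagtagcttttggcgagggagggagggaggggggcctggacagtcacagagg
CCACGT was found in 12.2% of the 49 promoters of tested members and in 6.91% of all 32851 promoters. The other motifs were found in 2.04% against 4.94% (CCGGAT), 2.04% against 3.17% (TGTTTAC), 12.2% against 14.4% (CAGATG), 14.3% against 13% (CAGCTG) and 2.04% against 0.384% (CAAAGTCCA). A match describes the letters of the window and is no evidence of a bound site. RefSeq promoters matched 63 of the 83 symbols and 35 of the 46 tested members.

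The summed level of the 84 genes had its lowest mean in ISC, the stem cell class, at 1025 CPM in replicate 1 and 1297 in replicate 2. In replicate 2 TUFT was lower still, at 1210 CPM. The summed level was 2833 and 2845 in SEC-PRO, 3292 and 3473 in GP, 3866 and 3868 in GOBLET-PRE, and 5499 and 5012 in GOBLET. Along this goblet branch the libraries of one class did not overlap those of the next. PANETH-PRE held 3304 and 3122 CPM and PANETH 2649 and 2581. Without scaling PANETH would instead be the lowest class, at 608 and 662 CPM, and GOBLET, at 3613 and 3489, would lie below GOBLET-PRE, at 4276 and 4266. ENTERO-PRO, the absorptive progenitor class, held 2194 and 2036 CPM, while EEC-PRE (1193 and 1611), EC (1318 and 1555), NON-EC (1639 and 1743) and TUFT (1304 and 1210) were closer to ISC. In free RNA, taken from barcodes with at most 50 UMIs, the same genes made up 2239 and 1840 unscaled CPM, and free RNA could account for at most 2.04 to 8.66% of any sum.

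**Figure D1:**
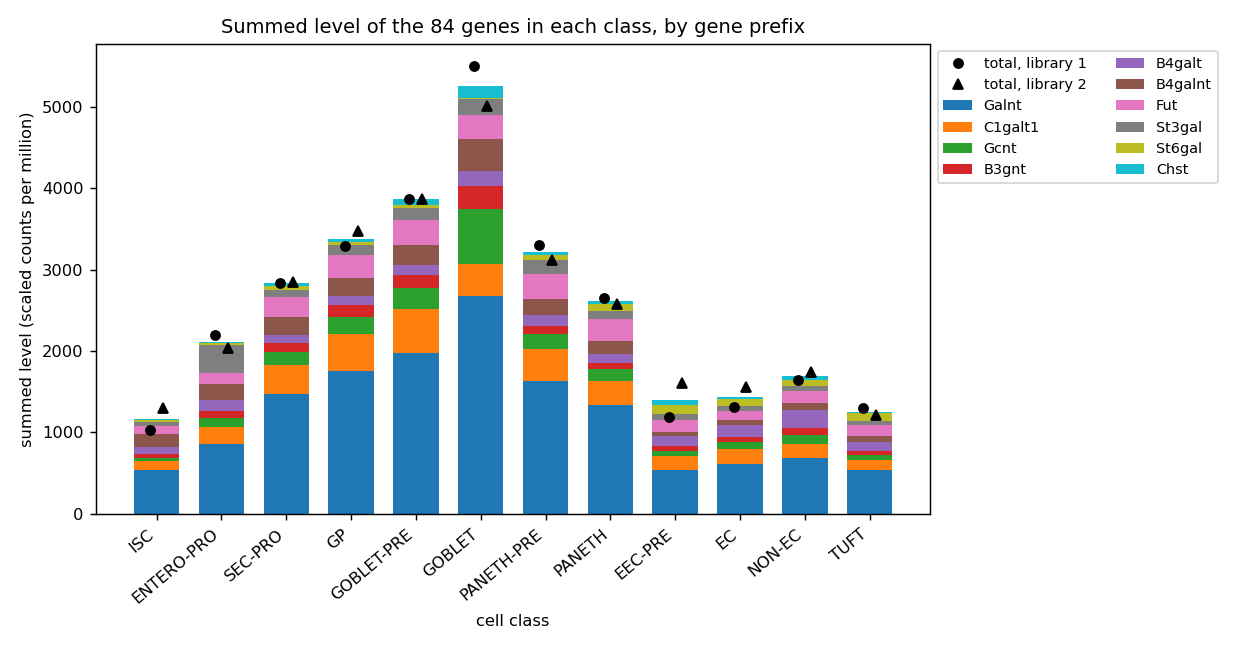
Stacked bars show the mean summed level of the 84 genes (scaled CPM, vertical axis) in each of 12 classes, split by gene-name prefix, with a dot and a triangle for the total in replicate 1 and replicate 2. GOBLET reached 5499 and 5012 CPM, and the Galnt genes were the largest block in each class.

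A few genes carried most of each prefix. Gcnt3 held 93.8% of all Gcnt UMIs, Chst4 85% of Chst, St6galnac2 77.6% of St6gal, C1galt1 73.3% of its pair and Fut8 70.8% of Fut. B4galnt1 (51.6%), B3gnt3 (46.8%), St3gal4 (39.1%), Galnt7 (37.2%) and B4galt1 (32.8%) led more evenly shared prefixes. Of the 46 tested members, 16 had their highest mean level in GOBLET, which was 34.8% against 17.5% of all 10994 tested genes. GOBLET-PRE was highest for 6 members (13%, against 1.69% of all genes), EEC-PRE for 6 (13% against 12.4%), TUFT for 5 (10.9% against 6.59%) and PANETH-PRE for 3 (6.52% against 2.08%). No tested member was highest in ISC, the highest class of 8.54% of all genes, or in GP, which led for only 0.764% of all genes. Both libraries gave the same highest class for 31 of the 46 members (67.4%), and for 47.1% of all genes.

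**Figure D2:**
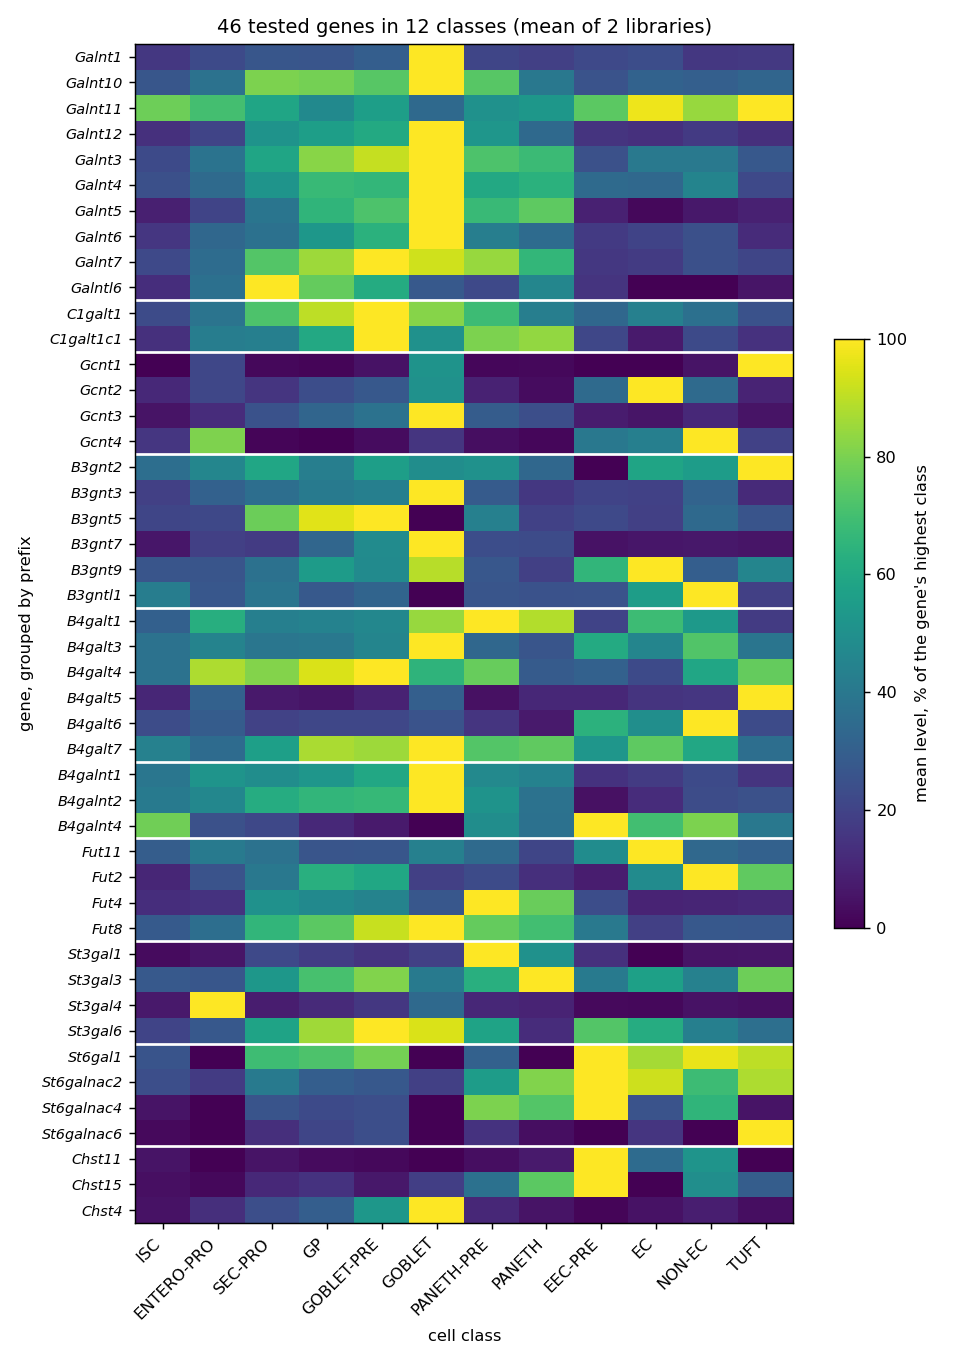
Each row is 1 of the 46 tested genes and each column 1 of the 12 classes; colour gives the mean level of 2 libraries as a percent of the gene's own highest class. Yellow marks the highest class, which is GOBLET for 16 genes, whereas St3gal4, St6galnac2, B4galt6 and Chst11 peak elsewhere.

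Galnt genes, which start the chains, formed the largest block. Their summed level was 465 and 610 CPM in ISC, 1422 and 1528 in SEC-PRO, 1945 and 2004 in GOBLET-PRE and 2823 and 2525 in GOBLET. Of 20 genes 10 were tested and 6 had no UMI (Galnt9, Galnt13, Galnt14, Galnt15, Galnt16 and Galntl5). Galnt7, which prefers substrates that already carry GalNAc (GRCm38, chr8:57523828-57653032, minus strand), rose from 142 and 198 CPM in ISC to 531 and 601 in SEC-PRO, a log2 change of 1.73 ± 0.10 (SE, edgeR adjusted p = 1.07e-22). Its level was 724 and 821 CPM in GOBLET-PRE, 760 and 673 in GOBLET, and 513 and 512 in PANETH, so it was high in each goblet and Paneth class. In EEC-PRE it was 111 and 141 CPM and in TUFT 168 and 153, near the stem cell level.

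Galnt1, a broadly acting initiator, followed another course. It was 127 and 122 CPM in SEC-PRO and 144 and 134 in GOBLET-PRE, then 503 and 426 in GOBLET, 3.35 times its next highest class. Galnt6 stood at 57.2 and 73.2 CPM in ISC, 153 and 155 in SEC-PRO, 266 and 261 in GOBLET-PRE and 405 and 420 in GOBLET, with no overlap between these classes. Galnt12 reached 425 and 259 CPM in GOBLET, where the libraries were far apart. Galnt3 was 257 and 235 CPM there, Galnt10 168 and 191, Galnt4 148 and 123 and Galnt5 148 and 179. Galnt11 was low throughout, between 9.87 and 40.2 CPM, and Galntl6 peaked at 12.2 and 9.94 CPM in SEC-PRO. Galnt4 shares exons with Poc1b on the same strand, so its counts are uncertain.

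The core 1 enzyme C1galt1 (chr6:7844842-7875687, plus strand) and its chaperone C1galt1c1, which folds it, both had their highest mean in GOBLET-PRE. From there to GOBLET the decrease of C1galt1c1 passed the test, while the C1galt1 change of -0.24 on the log2 scale did not. C1galt1 rose from 82.8 and 94.9 CPM in ISC to 309 and 254 in SEC-PRO and was 407 and 375 in GOBLET-PRE, 276 and 364 in GOBLET, and 178 and 155 in PANETH. C1galt1c1 was 20.3 and 22.6 CPM in ISC, 190 and 119 in GOBLET-PRE, and 88.9 and 67.9 in GOBLET. At least 1 C1galt1 UMI was found in 88 and 71% of GOBLET-PRE cells and 36 and 34.4% of ISC cells. After each cell was thinned to 2000 UMIs these shares were 56.7 and 56.2% against 15.5 and 20.3%.

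Core 3 synthase B3gnt6 was hardly captured, with 8 and 4 UMIs in the whole of replicate 1 and replicate 2. Most UMIs of the Gcnt prefix were of Gcnt3 (chr9:70031496-70038088, minus strand), the mucin-type enzyme of core 2 and core 4. Gcnt3 was 26.1 and 39.7 CPM in ISC, 166 and 152 in SEC-PRO, 251 and 231 in GOBLET-PRE and 740 and 531 in GOBLET, 2.64 times its next highest class. The other core 2 enzymes had their highest levels in other classes. Gcnt1 was 21.1 and 17.2 CPM in TUFT and at most 0.103 in ISC. Its second class was GOBLET, at 19.7 and 0 CPM, from 2 counts in replicate 1. Gcnt4 was highest in NON-EC (18.6 and 21 CPM) and ENTERO-PRO (15.5 and 16.5), and Gcnt2, which makes I-branches, in EC at 42.5 and 33.1. GOBLET was second for Gcnt2, at 19.7 and 18.5 CPM from 2 and 3 counts.

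Chain extension was split among several genes. B3gnt3, which extends core 1, was 26.3 and 32.5 CPM in ISC and 128 and 185 in GOBLET. B3gnt7 stood at 3.80 and 11.6 CPM in ISC, 47.4 and 73.3 in GOBLET-PRE and 88.9 and 160 in GOBLET; replicate 2 was above replicate 1 in each. B3gnt5, which starts lacto-series glycolipids, was 27.4 and 24.0 CPM in GOBLET-PRE and had no count in the 42 and 84 GOBLET cells. B4galt1, a main lactosamine galactosyltransferase, had its highest mean in PANETH-PRE, at 81.4 and 74.7 CPM, but GOBLET was higher in replicate 1 (88.9) and PANETH in replicate 2 (77.2). B4galt5 and B4galt6 make lactosylceramide, the base of most glycolipids, and their highest means were in different classes. B4galt5 was 44.7 and 36.4 CPM in TUFT, 3.21 times its next class, whereas B4galt6 was 145 and 81.7 in NON-EC and 63.8 and 81.9 in EEC-PRE. B4galt7, which builds the proteoglycan linker, stayed at 19.7 CPM or less.

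Among the capping genes, B4galnt2, which makes the Sda antigen, was 188 and 160 CPM in GOBLET and 6.72 and 9.10 in EEC-PRE. B4galnt1, the enzyme of complex gangliosides, was 217 and 216 CPM in GOBLET. Fut8, which adds the core fucose of N-glycans, was 73.9 and 66.6 CPM in ISC and 276 and 222 in GOBLET. Fut4, a Lewis x enzyme, was highest in PANETH-PRE at 106 and 94.1 CPM, against 46.7 and 42.7 in GOBLET-PRE, with no overlap. Fut2, the secretor fucosyltransferase that makes the H antigen, was highest in NON-EC (53.9 and 44.3 CPM) and TUFT (36 and 38.3). In GOBLET Fut2 was 0 and 18.5 CPM, from 0 and 3 counts, and its change from GOBLET-PRE was not called. Its relative Fut1 was not tested; it had 63 and 62 UMIs in all.

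The sialyltransferases peaked in different classes. St3gal4 (chr9:35046576-35119268, minus strand), which sialylates lactosamine ends, was 391 and 261 CPM in ENTERO-PRO and 98.7 and 123 in GOBLET, its second class. St3gal1 (chr15:67102875-67176830, minus strand), which sialylates core 1, was 73.8 and 95.5 CPM in PANETH-PRE and 54.6 and 31.0 in PANETH, and at most 19.7 in any other sum. St3gal6 was 58.4 and 77.9 CPM in GOBLET-PRE and 9.10 and 8.32 in PANETH. St6galnac2, which adds sialic acid to the GalNAc of O-glycans, was higher in several classes outside the goblet branch, but not in all. It was 80.6 and 100 CPM in EEC-PRE, 89.5 and 69.0 in TUFT, 72.8 and 73.4 in PANETH, and 9.87 and 24.7 in GOBLET. ISC, at 20.8 and 22.4 CPM, and ENTERO-PRO, at 18.3 and 13.2, lay below GOBLET-PRE, at 22.7 and 26.9. The GOBLET values rest on few counts, and the change from GOBLET-PRE (-0.39 on the log2 scale) was not called. From ISC to SEC-PRO it rose, by 0.78 (edgeR adjusted p = 1.65e-05). St6gal1, which acts on N-glycans, stayed at 7.66 CPM or less, and St6galnac1 had 1 and 0 UMIs.

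Most UMIs of the Chst prefix were of Chst4 (chr8:110029153-110039740, minus strand), which sulfates N-acetylglucosamine. Chst4 was 4.31 and 8.67 CPM in ISC, 34.7 and 30.8 in SEC-PRO, 71.2 and 72.3 in GOBLET-PRE and 148 and 123 in GOBLET, and 5.46 and 9.08 in PANETH. Chst5, a relative named for the intestine, had no UMI, nor had Chst1, Chst7, Chst9 or Chst10. Chst11 and Chst15, which sulfate chondroitin, were highest in EEC-PRE, at 37.0 and 22.8 CPM and 30.2 and 22.8 CPM. For Chst11 this was 1.94 times the next class, NON-EC, and for Chst15 1.34 times the next, PANETH. Chst11 had only 56 and 47 UMIs over all classes, and Chst15 118 and 104. The other genes left out of the tests had few counts, such as Galnt2 with 19 and 61 UMIs. Among those never counted were Fut9, Fut10, St6gal2 and St6galnac3. A gene with no count may be expressed below this depth.

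**Figure D3:**
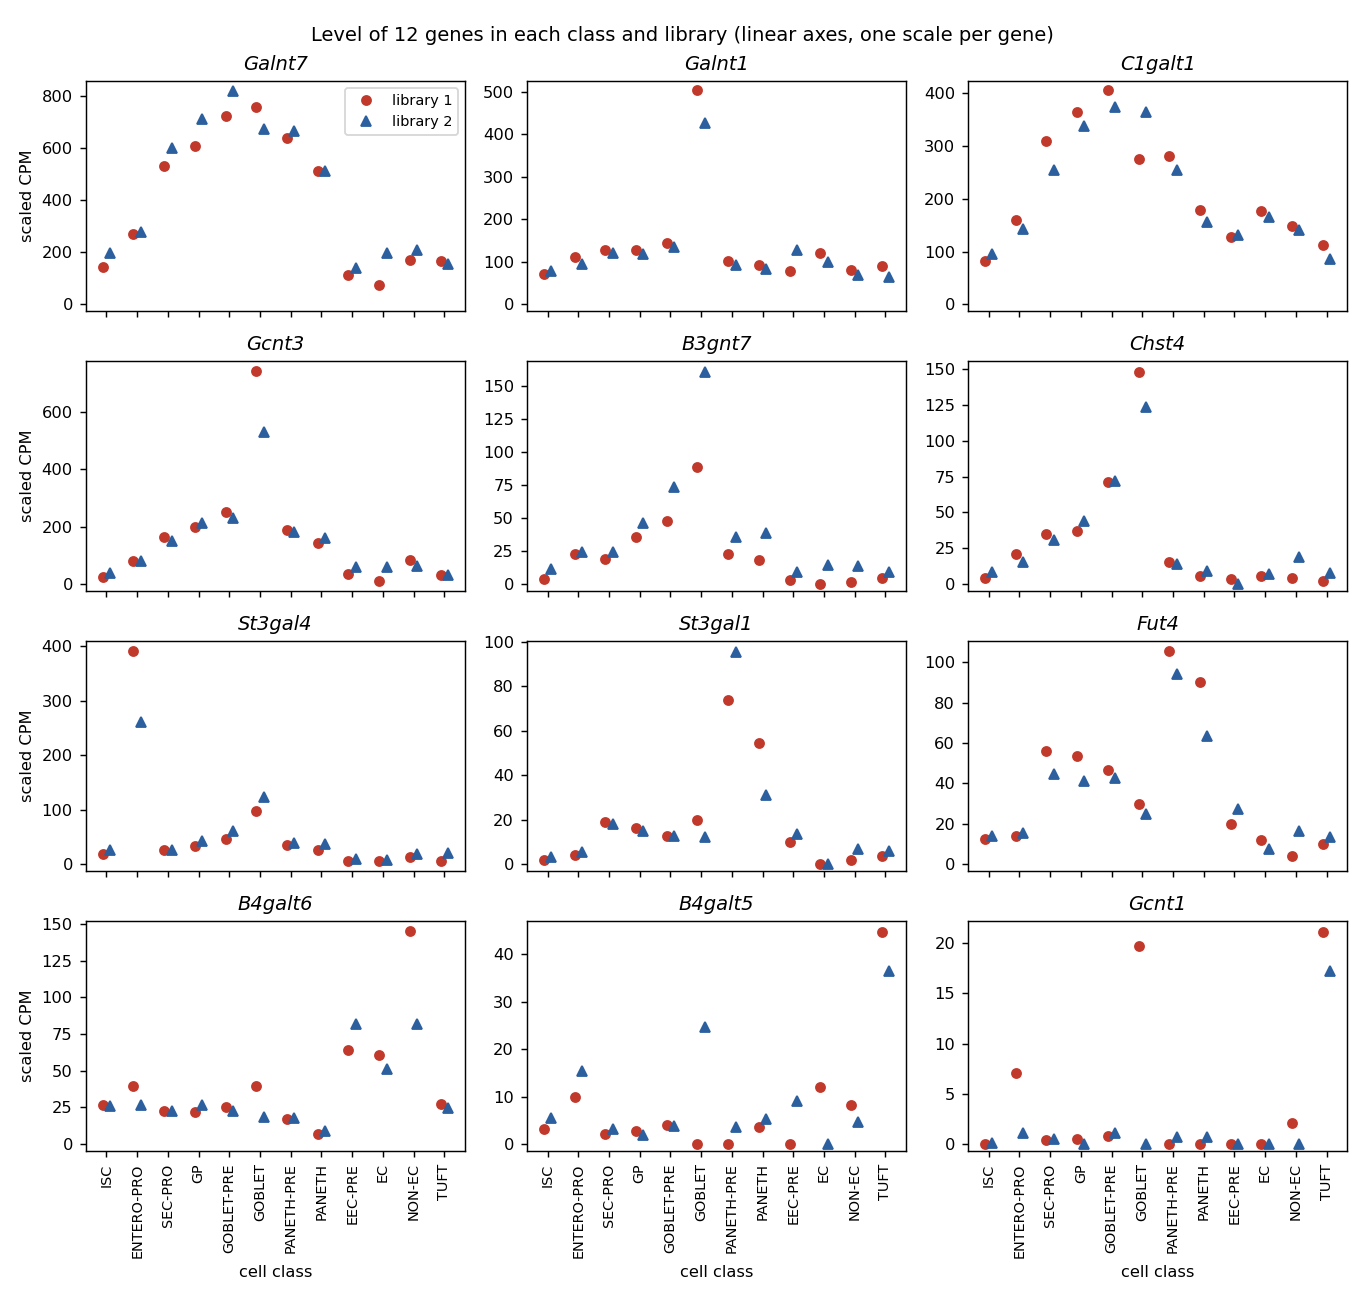
Scaled CPM (vertical axes, one scale per panel) of 12 genes in the 12 classes, with a dot for replicate 1 and a triangle for replicate 2. Galnt1, Gcnt3 and Chst4 peak in GOBLET, C1galt1 in GOBLET-PRE, St3gal1 and Fut4 in PANETH-PRE, St3gal4 in ENTERO-PRO, and Gcnt1 and B4galt5 in TUFT.

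Of the comparisons between classes, the step from ISC to SEC-PRO moved the most members upward. Of the 46 tested, 29 were higher in SEC-PRO and 2 were lower (edgeR quasi-likelihood test, Benjamini-Hochberg adjusted p under 0.05); over all genes the shares were 19.3% higher and 15.2% lower. The median log2 change was 1.14 over the tested members and 0.02 over all genes. At least 1 gene of every prefix rose: 9 of 10 Galnt genes did, as did both C1galt1 genes, 3 of 6 B3gnt genes, 3 of 4 Fut genes and 3 of 4 St3gal genes. St3gal1 went from 1.77 and 3.20 CPM to 19.1 and 18.1, a log2 change of 2.73 ± 0.26 (adjusted p = 5.22e-15). Gcnt3 rose by 2.21 ± 0.13 on the log2 scale (adjusted p = 1.42e-20) and Chst4 by 2.20 ± 0.19 (adjusted p = 1.42e-16). For these genes neither library of SEC-PRO overlapped ISC.

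Galnt5 rose from 9.12 and 19.5 CPM to 65.0 and 62.4, or 2.00 ± 0.26 (adjusted p = 3.08e-05), and Fut4 from 12.4 and 13.8 to 56.2 and 44.6, or 1.88 ± 0.15 (adjusted p = 6.66e-18). C1galt1 rose by 1.64 ± 0.10 (adjusted p = 1.26e-23), C1galt1c1 by 1.53 ± 0.15 (adjusted p = 3.54e-14) and Fut8 by 1.22 ± 0.11 (adjusted p = 1.6e-15). The lower members were B4galnt4, at 1.93 and 1.53 CPM against 7.85 and 4.54, and Gcnt4, with 2 counts against 52. The Gcnt4 ratio was 17.4-fold, with a counting interval of 4.57 to 147. In the same comparison 5 of 6 goblet markers rose, with a summed level of 42110 and 39358 unscaled CPM in SEC-PRO. So did 11 of 12 secretory transcription factors, among them Spdef (2.16) and Atoh1 (2.38 on the log2 scale). The part of goblet transcripts in these results was not tested.

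The absorptive progenitors were compared with the same stem cells. In ENTERO-PRO against ISC 19 of 46 members were higher, against 18.7% of all genes, and 0 were lower in edgeR and in DESeq2, against 18.4% of all genes. At an unadjusted p under 0.05, 2 were lower. The median log2 change was 0.46 over the tested members and -0.07 over all genes. St3gal4 led with 391 and 261 CPM against 18.0 and 26.9, a log2 change of 3.80 ± 0.18, or 13.9-fold (adjusted p = 1.27e-17). At least 1 St3gal4 UMI was found in 91 of 118 ENTERO-PRO cells (77.1%, exact 95% interval 68.5 to 84.3%) in replicate 1 and in 118 of 179 (65.9%, 58.5 to 72.8%) in replicate 2. In ISC the shares were 9.58 and 11.8%; in PANETH, which has many more UMIs per cell, they were 11.9 and 11.7%. With all cells thinned to 2000 UMIs, ENTERO-PRO still had 45.2 and 40.8% against 4.66 and 5.66% in ISC.

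Initiation and core enzymes rose too, Galnt7 by 0.69, C1galt1 by 0.74 and Gcnt3 by 1.22 ± 0.20 on the log2 scale. Both comparisons share the ISC sums, and the difference from the increases in SEC-PRO was not tested. C1galt1c1 rose by 1.5 ± 0.21, B3gnt7 by 1.46 ± 0.32 and Chst4 by 1.31 ± 0.36 (edgeR adjusted p = 0.00233). Gcnt4 rose from 1.52 and 4.75 CPM to 15.5 and 16.5 (2.25 ± 0.49, adjusted p = 9.97e-05). Gcnt1 had 6 counts against 1, a ratio of 50.6 with a counting interval of 6.13 to 2326. In ENTERO-PRO 5 of 5 enterocyte markers rose, to a sum of 5682 and 2892 unscaled CPM from 137 and 157. However, 5 of 6 goblet markers also rose, to 51787 and 54416 unscaled CPM from 9677 and 15874, and their part in the members' increases was not tested. St3gal4 was 2.93 times its next highest class, GOBLET.

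Within the goblet branch the first steps moved fewer members. From SEC-PRO to GP 9 members rose (4.38% of all genes) and 1 fell (12.7% of all genes), with a median log2 change of 0.15 against -0.07 over all genes. B3gnt7 rose from 18.7 and 24.5 CPM to 35.7 and 46.4, a log2 change of 0.92 ± 0.17 (adjusted p = 1.1e-05), without overlap. Galnt5 rose by 0.74 ± 0.22 (edgeR adjusted p = 0.0319), St3gal6 by 0.56 ± 0.15, Galnt6 by 0.51 ± 0.11 and C1galt1c1 by 0.49 ± 0.13. The remaining increases, Galnt3, Galnt4, Gcnt3 and C1galt1, lay between 0.32 and 0.48. St6galnac2 was lower by 0.44 ± 0.16 (adjusted p = 0.0432), a call that no other setting kept. From GP to GOBLET-PRE 3 members rose (4.91% of all genes), and 0 fell in edgeR and DESeq2 (4.48% of all genes), with 1 lower at an unadjusted p under 0.05. The median was 0.14, against -0.02 over all genes. Chst4 went from 36.9 and 44.4 CPM to 71.2 and 72.3 (0.83 ± 0.14, adjusted p = 5.45e-06), and C1galt1c1 from 103 and 83.7 to 190 and 119 (0.72 ± 0.12, adjusted p = 8.46e-06). B3gnt7 went from 35.7 and 46.4 CPM to 47.4 and 73.3 (0.54 ± 0.14, adjusted p = 0.00491), so that replicate 1 of GOBLET-PRE lay only just above replicate 2 of GP. Without the library as a term in the model no member was called in GP against SEC-PRO or in GOBLET-PRE against GP, so these calls rest on comparing classes within each library.

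Goblet maturation, from GOBLET-PRE to GOBLET, raised 8 members (8.21% of all genes) and lowered 2 (3.86%). The median log2 change was 0.20 over the tested members, or 0.51 over 40 with members near 0 counts set to their bound or left out, and -0.07 over all genes. The balance depended on scaling: 4 rose and 2 fell with DESeq2 size factors, and 3 rose and 4 fell with TMM factors over all genes. These factors moved the median of all genes by -0.176 and -0.365 on the log2 scale. Galnt1, Gcnt3 and B3gnt3 rose under every scaling. Galnt1 went from 144 and 134 CPM to 503 and 426, 3.31-fold (log2 1.73 ± 0.17, adjusted p = 1.45e-13), and Gcnt3 from 251 and 231 to 740 and 531, 2.56-fold (1.35 ± 0.17, adjusted p = 9.22e-09). B3gnt3 went from 66.3 and 69.0 CPM to 128 and 185 (1.22 ± 0.26, adjusted p = 0.000255). None of these overlapped between the classes. Of 6 goblet markers 5 also rose, to 348514 and 352417 unscaled CPM from 125736 and 113158, and their part in these results was not tested.

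B3gnt7 (1.06 ± 0.31, edgeR adjusted p = 0.0104) and Chst4 (0.87 ± 0.30, adjusted p = 0.0415) passed with less room, and B4galnt1, Galnt12 and Galnt6 rose by 0.72, 0.65 and 0.65. Each of these 5 lost the call under TMM factors over all genes. C1galt1c1 fell from 190 and 119 CPM to 88.9 and 67.9 (by 0.96 ± 0.32, adjusted p = 0.0378), a call lost with no library term and with thinned cells. B3gnt5 had 551 counts in GOBLET-PRE and 0 in GOBLET, at least 2.33-fold lower when 3 counts over both libraries are taken as the floor. Without the library term 4 members rose and 1 fell. GOBLET rests on 42 and 84 cells, so its levels are less precise than those of GOBLET-PRE.

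Paneth precursors were compared with goblet precursors. In PANETH-PRE against GOBLET-PRE 15 members were lower (10% of all genes) and 7 higher, a share close to the 14.1% of all genes, and without the library term 5 were lower. Over the tested members the median log2 change was -0.35, against 0.09 over all genes. St3gal1 was 73.8 and 95.5 CPM against 12.7 and 12.8, 6.62-fold higher (log2 2.73 ± 0.18, adjusted p = 1.35e-23). Fut4 was higher by 1.16 ± 0.14 (adjusted p = 1.09e-10), B4galt1 by 1.14 ± 0.17 (adjusted p = 8.44e-07) and St6galnac2 by 1.03 ± 0.17 (adjusted p = 2.02e-06). Chst15, St6galnac4 and B4galnt4 were also higher, all at 11.5 CPM or less. Chst4 was lower, at 15.9 and 14.4 CPM against 71.2 and 72.3, 4.75-fold (adjusted p = 1.48e-14). Gcnt2 was lower by 1.57 ± 0.43 on the log2 scale, Fut2 by 1.30 ± 0.33, B3gnt5 by 1.19 ± 0.26 and B3gnt7 by 1.04 ± 0.19. Among initiation genes Galnt1, Galnt3, Galnt6 and Galntl6 were lower. C1galt1 stood at 281 and 254 CPM against 407 and 375 (edgeR adjusted p = 2.4e-05). Beside these, the 6 Paneth markers summed to 211306 and 200186 unscaled CPM in PANETH-PRE and 12315 and 21232 in GOBLET-PRE.

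Paneth maturation, from PANETH-PRE to PANETH, lowered 8 members (2.79% of all genes). In edgeR and DESeq2 0 rose (5.36% of all genes), and 2 were higher at an unadjusted p under 0.05. Over the tested members the median log2 change was -0.32, against 0.09 over all genes. St3gal6 went from 37.2 and 41.7 CPM to 9.10 and 8.32, 4.62-fold lower (adjusted p = 4.48e-07). St3gal1 fell from its peak to 54.6 and 31.0 CPM (by 1.01 ± 0.20 on the log2 scale, adjusted p = 0.00015), and C1galt1 fell by 0.69 ± 0.12 (adjusted p = 2.76e-05). Galnt10 fell by 0.88 ± 0.16, B4galt4 by 1.40 ± 0.43, B3gnt3 by 0.81 ± 0.23, Galnt12 by 0.62 and Galnt7 by 0.35. Without the library term 3 members fell. The median UMI count per cell was 23375 and 12874 in PANETH against 6600 and 4343 in PANETH-PRE, and after thinning to 2000 UMIs per cell 3 members fell. The summed level of the 6 Paneth markers was 362058 and 399093 unscaled CPM in PANETH against 211306 and 200186 in PANETH-PRE, and its part in these decreases was not tested.

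**Figure D4:**
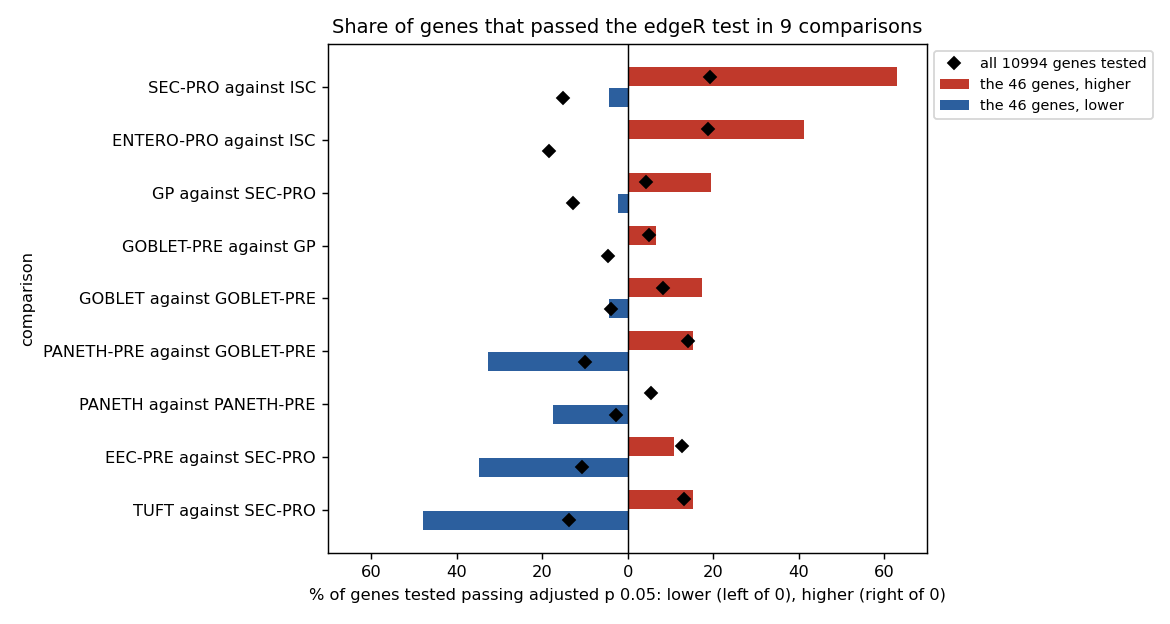
For each of 9 comparisons, bars show the percent of the 46 tested members called higher (red, to the right) or lower (blue, to the left), and black diamonds mark the same percent over all 10994 tested genes. The members stand beyond the diamonds on the higher side in SEC-PRO against ISC (29 of 46) and on the lower side in TUFT and EEC-PRE against SEC-PRO (22 and 16 of 46).

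Several members changed differently in the 2 maturation steps. The difference was tested directly, as the change from GOBLET-PRE to GOBLET minus the change from PANETH-PRE to PANETH, a test added after the data were seen. The goblet change was the larger for 9 members (5.07% of all genes). For 0 members it was the smaller in edgeR and DESeq2 (3.38% of all genes), with 2 at an unadjusted p under 0.05. With DESeq2 size factors the counts were 8 and 1, and with TMM over all genes 7 and 1. B3gnt3 rose by 1.22 in goblet and fell by 0.81 in Paneth maturation, a difference of 2.03 ± 0.35 (adjusted p = 8.07e-06). For Galnt1 the difference was 1.88 ± 0.23 (adjusted p = 1.5e-09) and for Gcnt3 1.63 ± 0.22 (adjusted p = 2.5e-07).

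**Figure D5:**
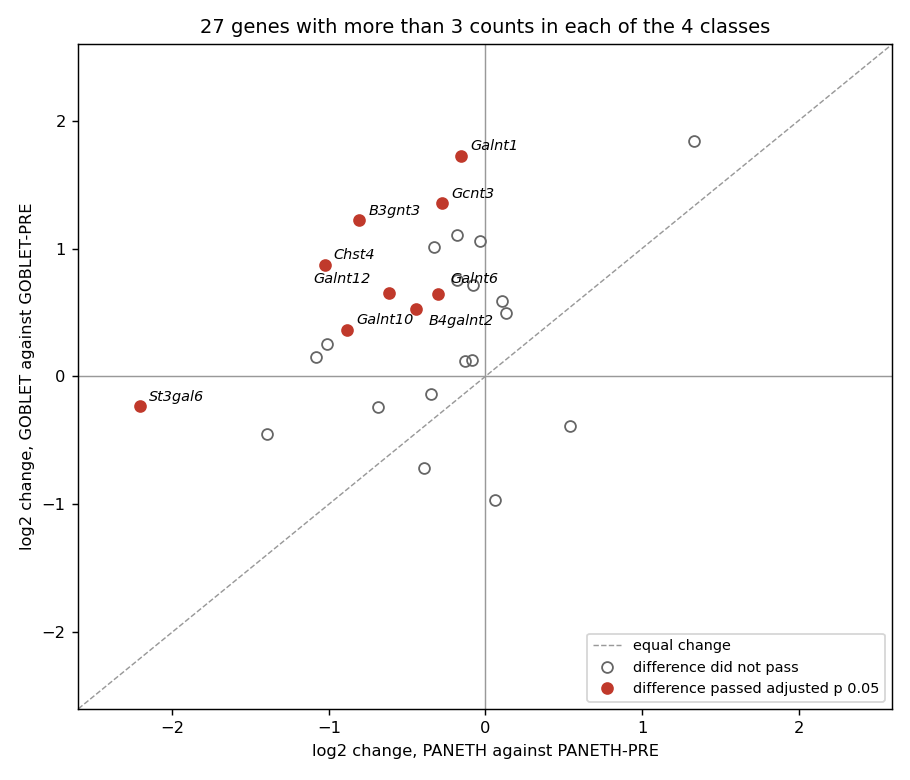
Each point is 1 of 27 members with more than 3 counts in each of the 4 classes (19 were left out); the horizontal axis is the log2 change from PANETH-PRE to PANETH and the vertical axis that from GOBLET-PRE to GOBLET. Filled points passed the test of the difference, and among them Galnt1 (1.73 against -0.15) and Gcnt3 (1.35 against -0.28) lie highest. The open point of B4galt5 (1.84 against 1.33), which did not pass, lies above both.

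The enteroendocrine and tuft classes held lower levels of many members than SEC-PRO. In EEC-PRE against SEC-PRO 16 members were lower (10.6% of all genes) and 5 higher (12.7%). The median log2 change was -0.93 over the tested members, or -0.70 with members near 0 counts set to their bound or left out, and -0.00 over all genes. B4galnt2 was 6.72 and 9.10 CPM against 112 and 104, 13.9-fold lower (adjusted p = 3.23e-11). Galnt7 fell by 2.18 ± 0.18 on the log2 scale (adjusted p = 1.71e-16), Galnt12 by 1.80 ± 0.26 (adjusted p = 5.07e-08) and C1galt1 by 1.13 ± 0.18 (adjusted p = 6.02e-07). Chst4 had 1 count in EEC-PRE, a ratio of 17.1 (counting interval 3.05 to 678), and B3gnt7 had 3, a ratio of 3.65 (1.23 to 17.9). The B3gnt7 call was lost with no filter, no library term, thinned cells, free RNA taken off and the DESeq2 test. In the same comparison 5 of 6 goblet markers fell, to a sum of 13055 and 13361 unscaled CPM from 42110 and 39358, and their part in these decreases was not tested.

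The members higher in EEC-PRE were Chst11, Chst15, B4galt6, St6galnac2 and Gcnt4. Chst11 went from 2.12 and 1.02 CPM to 37.0 and 22.8, 18.3-fold (adjusted p = 6.08e-07), and Chst15 from 1.54 and 4.59 to 30.2 and 22.8 (adjusted p = 4.17e-05). B4galt6 went from 22.6 and 22.4 CPM to 63.8 and 81.9 (1.67 ± 0.31, adjusted p = 1.65e-05). St6galnac2 rose by 1.28 ± 0.27 (edgeR adjusted p = 0.000117), a call lost with thinned cells. Gcnt4 had 4 counts against 2 in a much larger sum, a ratio of 35.2 (5.05 to 389). No library of EEC-PRE overlapped SEC-PRO for Chst11, Chst15, B4galt6 or St6galnac2.

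In TUFT against SEC-PRO 22 members were lower (13.7% of all genes) and 7 higher (13.2% of all genes), with 4 higher without the library term. The median log2 change was -1.09 over the tested members and 0.01 over all genes. Of 6 goblet markers 4 fell as well, to a sum of 10709 and 13194 unscaled CPM in TUFT, and their part in the decreases was not tested. Gcnt3 was 33.6 and 32.6 CPM against 166 and 152, 4.79-fold lower (adjusted p = 1.29e-12), and Chst4 was 7.19-fold lower (adjusted p = 3.64e-07). Fut4 fell by 2.17 ± 0.32, Galnt5 by 2.08 ± 0.51 (adjusted p = 0.0073), St3gal1 by 2.03 ± 0.51 and C1galt1 by 1.49 ± 0.14 (adjusted p = 1.16e-14). Of the 10 tested Galnt genes 9 were lower, and Galnt11 was higher, at 24.9 and 40.2 CPM against 16.6 and 21.7 (0.73 ± 0.28, adjusted p = 0.048). The Galnt11 call was kept only with free RNA taken off, and was lost under the other 6 settings that were tested.

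The higher members in TUFT included another core 2 enzyme and a lactosylceramide enzyme. Gcnt1 was 21.1 and 17.2 CPM against 0.386 and 0.510 (5.31 ± 0.73, adjusted p = 4.61e-09, with 4 counts in SEC-PRO). It had 42 and 21 UMIs in all, 17 and 9 of them in TUFT. Gcnt1 and St6galnac6, which was 4.17 times its next highest class in TUFT, passed the count filter through TUFT. Their calls here are therefore not independent of that filter, and both were kept with no filter on low counts. A Gcnt1 UMI was found in 9.94% of TUFT cells in replicate 1 (exact 95% interval 5.79 to 15.6%) and 6.29% in replicate 2 (2.92 to 11.6%). In ISC it was found in 0 of 553 and 0.0575% of cells, and free RNA held 0.828 and 1.71 CPM. B4galt5 was 15.5-fold higher, at 44.7 and 36.4 CPM against 2.12 and 3.31 (adjusted p = 1.65e-12). St6galnac6 rose from 2.70 and 0.510 CPM to 12.4 and 11.5 (adjusted p = 0.000844), St6galnac2 by 1.15 ± 0.19 (adjusted p = 1.17e-06) and Fut2 by 1.03 ± 0.35 (adjusted p = 0.0273), a call lost with no library term, thinned cells and the DESeq2 test. Gcnt4 had 4 counts, all in replicate 2, against 2, a ratio of 13.7 (1.97 to 152).

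Enzymes that supply the sugar and sulfate donors were counted beside the transferases. Of 29 listed donor synthesis genes 27 were tested. In SEC-PRO against ISC 19 rose (70.4%, against 19.3% of all genes) and 2 fell, with a median log2 change of 0.85 (0.02 over all genes). In EEC-PRE against SEC-PRO 14 fell (51.9%, against 10.6%) and the other 13 did not pass the test, with a median of -1.04 (-0.00 over all genes). In TUFT against SEC-PRO 15 fell (55.6%, against 13.7%) and 2 rose (7.41%, against 13.2%), with a median of -0.86 (0.01 over all genes). Gfpt1, the entry enzyme of the hexosamine pathway, rose by 1.74 ± 0.12 in SEC-PRO (edgeR adjusted p = 5.67e-13) and fell by 2.17 in EEC-PRE and by 1.67 in TUFT. Of 10 tested Golgi donor transporters 6 rose in SEC-PRO (60%, against 19.3% of all genes), with a median of 0.72. In EEC-PRE 6 fell (60%, against 10.6%), with a median of -1.37, and the other 4 did not pass the test.

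Papss2, which makes the sulfate donor, was higher in GOBLET and lower in PANETH-PRE than in GOBLET-PRE, as Chst4 was. It was 21.2 and 20.7 CPM in GOBLET-PRE, 49.4 and 74.1 in GOBLET (log2 change 1.64 ± 0.44, edgeR adjusted p = 0.00477) and 1.38 and 2.87 in PANETH-PRE (-3.27 ± 0.41 against GOBLET-PRE, adjusted p = 5.81e-10). Gne, the first enzyme of sialic acid synthesis, was instead higher in PANETH-PRE than in GOBLET-PRE, at 152 and 155 CPM against 66.7 and 78.0 (1.08 ± 0.13, adjusted p = 6.18e-11). Galk1, of galactose use, was 237 and 172 CPM in TUFT against 23.7 and 31.6 in SEC-PRO (2.95 ± 0.17, adjusted p = 3e-24). Of the mucin core proteins 5 of 13 were tested, and all 5 rose in GOBLET against GOBLET-PRE (8.21% of all genes did), among them Muc2 (1.88 ± 0.45, edgeR adjusted p = 0.0163).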

How the data were processed

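The authors deposited raw UMI counts per gene and barcode for 2 libraries, processed with Cell Ranger 3.0.2, STAR and mm10 per the submitters' processing notes, and a table of cells with class, library and percent values; the labels do not say how strand was handled. Class and library were taken from that table, and 77.6 and 73.9% of its cells had the same total count as the matrix (largest differences 11 and 25). Counts were summed per class and library with Python 3.11.15 (pandas 2.3.3). Sums were fitted with edgeR 4.0.16 (R 4.3.3): 10994 genes passed filterByExpr, TMM factors came from 1975 genes of average log2 CPM of at least 6, the terms were class and library, and 11 residual degrees of freedom remained. The changes within each library use a prior count of 2. The fold and log2 changes given are those of the fit, which are drawn less toward 0 at low counts. For Chst11 in EEC-PRE against SEC-PRO the fitted log2 change was 4.19, against 3.70 in each library. Calls use an adjusted p under 0.05. The biological coefficient of variation had a median of 0.0641.

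Classes of one library share its number and so pair the sums: over 66 class pairs and 3814 genes the median correlation of deviations was 0.297 (0.0551 to 0.777). The library term is therefore in the model. Alternatives were DESeq2 1.42.0 (size factors, and its Wald test), TMM over all genes, no filter on low counts, no library term, cells thinned to 2000 UMIs, free RNA taken off, a digit required after every prefix, and each library left out. The fit was tested on simulated data. Depth was 32656481 and 27014983 UMIs in listed cells, with medians of 5706 and 3503 per cell; binomial intervals, counting intervals and the floor of 3 counts cover counting error only.

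Full statistics are given for up to 5 increases and 5 decreases per comparison among members with an adjusted p under 0.05, average log2 CPM of at least 3 and one direction in both libraries, for a listed set of enzymes, and for the leader of each prefix. Other members are named in the account of their prefix. Members and lists were chosen with earlier results of these data known. Gene positions are from GENCODE M21 (GRCm38). Several members overlap other genes, so their counts may hold reads of a neighbour. B3gnt2 and Galnt2 do so on the same strand, and the 2 St6galnac2 entries overlap each other there. St6galnac2 values are those of the entry with 989 and 920 UMIs, and the other entry had 15 and 17. Members with an overlap on the opposite strand include B4galnt1, St3gal6, Galnt5, Galnt6, B3gnt7, B4galnt2, Fut8, St3gal4 and Galnt7.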

Additional observations from a re-analysis of the deposited data

Results flagged for a closer look

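For 9 members the change during goblet maturation (GOBLET against GOBLET-PRE) differed from that during Paneth maturation (PANETH against PANETH-PRE) by a direct test of the difference, added after the data were seen. Differences are goblet minus Paneth on the log2 scale, with edgeR adjusted p. The extension enzyme B3gnt3 differed by 2.03 (adjusted p = 8.07e-06), the sialyltransferase St3gal6 by 1.98 (adjusted p = 0.0147) and the sulfotransferase Chst4 by 1.90 (adjusted p = 0.00757). The initiation enzymes Galnt1, Galnt12, Galnt10 and Galnt6 differed by 1.88, 1.26, 1.25 and 0.95 (adjusted p = 1.5e-09, 0.00011, 0.00153 and 0.0013). The branching enzyme Gcnt3 differed by 1.63 (adjusted p = 2.5e-07) and the Sda enzyme B4galnt2 by 0.97 (adjusted p = 0.0232). The difference had one direction in both libraries for each of the 9. For St3gal6 the difference comes with a Paneth decrease, since its goblet change was -0.23 and its Paneth change -2.21. The call of B4galnt2 was lost with DESeq2 size factors, TMM over all genes, no library term, thinned cells and the DESeq2 test; that of Galnt10 with no library term and thinned cells, that of Galnt6 with TMM over all genes and thinned cells, and that of St3gal6 with no library term.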

How the results depend on the processing

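No call of a member turned direction under any alternative tried, and the cause of the changes below was not tested. Of 153 member calls, 143 remained with DESeq2 size factors, 144 with TMM over all genes, 146 without the filter, 142 of 152 with free RNA taken off, 122 with the DESeq2 test and 94 of 134 with cells thinned to 2000 UMIs. With no replicate block, which removes the pairing of classes within a library, 100 remained: the members higher were 0 in GP against SEC-PRO, 0 in GOBLET-PRE against GP, 4 in GOBLET and 4 in TUFT, and those lower were 1 in GOBLET, 5 in PANETH-PRE and 3 in PANETH. Thinning gave 10 higher in ENTERO-PRO, 4 in PANETH-PRE, 2 in EEC-PRE and 2 in TUFT, and 0 lower in SEC-PRO, 0 in GOBLET, 7 in PANETH-PRE and 3 in PANETH; it leaves fewer counts. The DESeq2 test gave 5 higher in GP and 3 in GOBLET. DESeq2 size factors gave 4 higher in GOBLET, and TMM over all genes gave 5 in GOBLET-PRE and 3 in GOBLET, with 4 lower in GOBLET. Either scaling gave 1 member whose goblet change was below its Paneth change. Free RNA taken off gave 1 higher in PANETH. The 1 member lower in GP, St6galnac2, was 0 under every alternative. Leaving out either library gave values and no test, since 1 sum per class leaves no residual degrees of freedom. GOBLET, EC and EEC-PRE rest on the fewest cells, which limits low members there.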
